A study of Mus musculus with 10 samples.

Results

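The genes described here are Ppia, B2m, Hprt and Tbp, 4 transcripts that laboratories commonly use as internal standards when they measure other RNAs. They were chosen by name, through 1 probe each, out of 116 probes on the array that carry a gene symbol. Each of the 4 belongs to a control panel of 15 probes that the array maker printed at 20 spots apiece, so every array measured each gene many times. RNA was hybridised to 10 one-colour arrays, 1 per sample. White fat after CL (2 arrays), brown fat after saline (2 arrays) and white fat after saline (2 arrays) came from wild-type mice on chow that received an intraperitoneal injection every day for 7 days. CL is an agonist of the β3-adrenergic receptor, given at 1 mg/kg, and brown fat after CL is not analysed here. Wild-type brown adipocytes in culture were sampled at days 0, 3, 5 and 7 of differentiation, with 1 array per day. The labels give no strain, sex or age, no location of the white depot, no origin of the cultured cells and no statement on whether animals were pooled. They call the tissue arrays biological replicates, and nothing says how the animals were kept apart, so p-values measure the spread between these arrays only.

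A reference gene is useful when its RNA stays level while other RNAs change, because all other values are then read against it. The 4 genes come from unrelated parts of the cell. Ppia encodes cyclophilin A, an abundant cytosolic enzyme that turns proline bonds during protein folding and is the binding partner of cyclosporin. B2m encodes β2-microglobulin, the light chain of MHC class I molecules on nearly all nucleated cells, and interferons raise it. Hprt, on the X chromosome, encodes the salvage enzyme that rebuilds purine nucleotides from hypoxanthine and guanine. Tbp encodes the TATA-binding protein, a subunit of the general transcription factor TFIID.

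The stretches of 100 bases before the annotated start of the 4 genes are shown as a description, because they differ in the 2 words searched. Sequences are from RefSeq (GRCm38.p6), written 5′ to 3′, with capitals on the words TATAA and GGGCGG, searched on both strands.
Ppia, chr11:6415767-6415866, plus strand: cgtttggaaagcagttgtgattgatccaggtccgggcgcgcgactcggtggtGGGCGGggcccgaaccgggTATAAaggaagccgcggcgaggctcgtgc
B2m, chr2:122147587-122147686, plus strand: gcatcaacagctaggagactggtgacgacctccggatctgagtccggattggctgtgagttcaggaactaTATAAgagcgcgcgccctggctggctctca
Hprt, chrX:52987978-52988077, plus strand: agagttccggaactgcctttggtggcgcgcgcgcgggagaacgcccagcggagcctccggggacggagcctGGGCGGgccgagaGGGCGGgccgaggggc
Tbp, chr17:15499788-15499887, plus strand: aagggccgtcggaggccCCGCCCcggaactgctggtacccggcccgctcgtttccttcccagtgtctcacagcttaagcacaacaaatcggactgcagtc
The Ppia and B2m stretches each held 1 TATAA, beginning 29 and 30 bases before the start, and those of Hprt and Tbp held 0. GGGCGG, the core of a GC box, occurred 1 time before Ppia, 0 times before B2m, 2 times before Hprt and 1 time before Tbp. Of 32851 mouse promoter windows, 10.2% held TATAA and 24.7% held GGGCGG in the same 100 bases. These are matches of letters and do not show that a factor binds there. A link between either word and the values below was not tested.

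Values are log2 of the processed signal, averaged over the spots of a probe, less the 75th percentile of that array, unless a sentence names another scaling. On every array all 20 spots of each of the 4 probes were well above background, and 15 to 20 remained after outlier spots were left out. Spots of 1 probe on 1 array had SDs of 0.035 to 0.18 on the log2 scale, and the largest standard error of an array's mean was 0.040. Between 55.2% and 78.3% of 59709 probes were well above background per array, as were 10.9% to 36.4% of the negative control spots, and 0 spots were saturated. The 2 arrays of CL-treated white fat stood furthest apart of the 3 replicate pairs, with a median gap of 0.78 over tested probes, against 0.29 in brown fat and 0.32 in saline white fat. The 75th percentile itself was 9.19 on the first CL array and 7.88 on the second. Tissue arrays were scanned together and cell arrays in a second scan, so tissue or culture and scan cannot be told apart. On the tissue slide, treatment went with the column and depot with the row, and these pairs cannot be told apart. The defining markers of brown fat (1 of 6 measured by symbol, Gk), white fat (0 of 4), endothelium (0 of 2) and preadipocytes (0 of 2) could not serve as a check of the labels beyond Gk, the glycerol kinase gene.

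Ppia stayed within narrow limits in saline-treated fat of both depots and was split by the CL pair. It read 8.69 and 9.68 in CL-treated white fat, 9.32 and 9.32 in brown fat, and 9.24 and 9.20 in saline white fat. The lowest and the second highest of its 10 values were thus the 2 CL arrays. In culture it read 9.69, 9.40, 9.29 and 9.67 at days 0, 3, 5 and 7. B2m followed nearly the same course, at 8.65 and 9.68 in CL-treated white fat, 8.91 and 9.19 in brown fat, and 9.38 and 9.18 in saline white fat. Its brown and white fat values overlapped, and its 2 CL values bracketed all others. In culture B2m read 9.62 at day 0, 9.04 at day 3, 9.13 at day 5 and 9.33 at day 7.

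Hprt read 6.73 and 7.48 in CL-treated white fat, 5.98 and 6.08 in brown fat, and 7.09 and 7.20 in saline white fat. Both brown fat arrays lay below each of the other 8 arrays. In culture, Hprt read 7.46, 7.14, 6.97 and 7.33 at days 0, 3, 5 and 7, so that cultured brown adipocytes sat near white fat rather than near brown fat. Tbp read 1.45 and 0.66 in CL-treated white fat, 0.65 and 0.94 in brown fat, and 1.54 and 1.25 in saline white fat. On this scale the first CL array was the higher of the pair, and for the other genes it was the lower. Without scaling the first was the higher for all 4. Tbp in culture read 2.15 at day 0, 1.78 at day 3, 1.75 at day 5 and 1.32 at day 7, and day 0 was the highest of its 10 values.

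**Figure D1:**
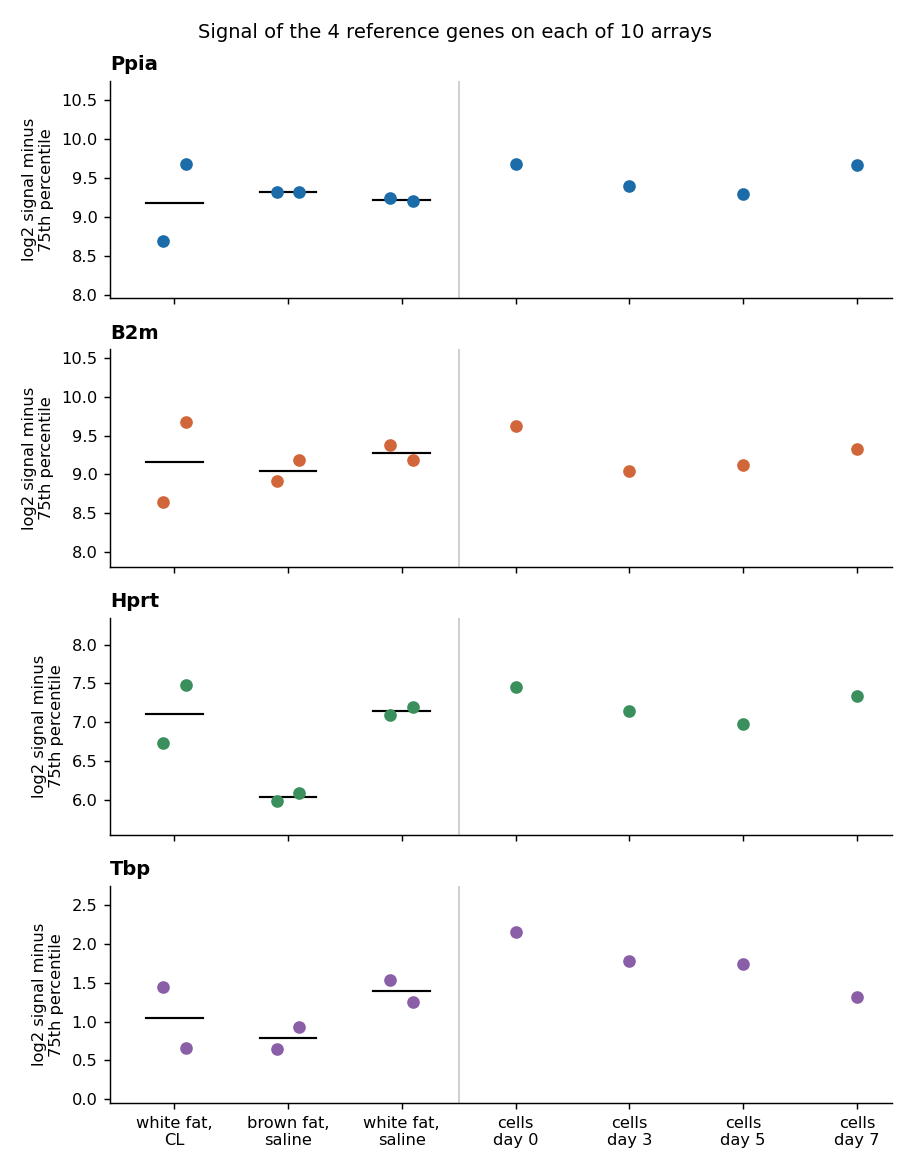
Each point is 1 array, grouped along the horizontal axis, and the vertical axis is the log2 signal minus the array's 75th percentile; short lines are means of 2 arrays, and replicate 1 is left of replicate 2. Ppia and B2m stay within about 1 log2 unit, Hprt drops to 5.98 and 6.08 in brown fat, and the CL pair is split for all 4 genes.

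The first comparison set brown fat against white fat, both after saline. In a limma fit over 43542 probes, 0 of the 4 genes were called at an adjusted p under 0.05, beside 10.4% of all tested probes. Hprt averaged 6.03 ± 0.071 in brown fat and 7.15 ± 0.079 in white fat (SD, n = 2 each), a log2 difference of -1.11 (SE 0.39, 95% interval -2.02 to -0.21, limma adjusted p = 0.107), or 2.16-fold lower in brown fat. The 2 groups did not overlap, as was so for 72.5% of tested probes. Its call depended on how the spread was estimated. Hprt passed the threshold when the 2 saline groups were fitted alone (limma adjusted p = 0.0195, where 32.7% of probes were called), and this is the same as leaving out either CL array. It also passed with quantile normalization (log2 -1.28, limma adjusted p = 0.0303, 13.3% of probes called) and with normexp background correction (log2 -1.24, limma adjusted p = 0.0332, 10.2% of probes called). Without either brown fat array or either saline white fat array it did not pass, and its limma adjusted p reached 0.448. The log2 difference was between -1.17 and -1.06 whichever array was left out.

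Tbp averaged 0.79 ± 0.20 in brown fat and 1.39 ± 0.20 in white fat (SD, n = 2 each), a log2 difference of -0.60 (95% interval -1.55 to 0.35, limma adjusted p = 0.361), and its groups did not overlap either. Ppia averaged 9.32 ± 0.0052 in brown fat and 9.22 ± 0.031 in white fat (SD, n = 2 each), a log2 difference of 0.10 (95% interval -0.88 to 1.08, limma adjusted p = 0.901). On this scale its groups did not overlap, as was so for 72.5% of tested probes, and brown fat was the higher. Its sign was not settled, since the difference was -0.33 with quantile normalization, again without overlap, and -0.035 with normexp. B2m averaged 9.05 ± 0.20 in brown fat and 9.28 ± 0.14 in white fat, a log2 difference of -0.23 (95% interval -1.25 to 0.79, limma adjusted p = 0.764). With quantile normalization B2m read 17.14 and 17.37 in brown fat, against 17.88 and 17.81 in white fat, a log2 difference of -0.59 (limma adjusted p = 0.172) without overlap. The share of all probes without overlap was not counted with quantile normalization, so no overlap there shows nothing particular to B2m or Ppia. A difference that misses the threshold does not show a steady level, so each interval was read against a width of 1 log2 unit, a 2-fold change either way. In this comparison 0 of the 4 intervals lay inside it, beside 5.95% of tested probes. In the fit of the saline groups alone the intervals of Ppia (-0.48 to 0.68) and B2m (-0.86 to 0.39) lay inside, beside 25.5% of probes, while that of Hprt (-1.70 to -0.53) reached beyond it. The interval of Ppia alone of the 4 lay inside with median scaling (-0.65 to 0.95, beside 15% of probes), quantile normalization (-0.93 to 0.28, beside 15.9%) and normexp (-0.79 to 0.72, beside 35.6%).

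The second comparison asked whether CL moved the genes within white fat. None of the 4 was called, nor was any of the 43542 probes by limma (0% called), although 2378 probes had an unadjusted p under 0.05. Ppia averaged 9.18 ± 0.70 after CL and 9.22 ± 0.031 after saline (SD, n = 2 each), a log2 difference of -0.036 (95% interval -1.02 to 0.95, limma adjusted p = 1.00). For B2m the means were 9.16 ± 0.73 after CL and 9.28 ± 0.14 after saline, with a log2 difference of -0.12 (interval -1.14 to 0.90). Hprt averaged 7.10 ± 0.53 after CL and 7.15 ± 0.079 after saline, and its log2 difference of -0.045 had an interval of -0.95 to 0.86. That was the only interval of the 4 inside 1 log2 unit on this scale, beside 13% of tested probes, and it was not inside without the filter or when any single array was left out. The intervals of Ppia, B2m and Hprt all lay inside with median scaling (beside 29.2% of probes), quantile normalization (30%) and normexp (57.9%). Tbp averaged 1.05 ± 0.56 after CL and 1.39 ± 0.20 after saline, a log2 difference of -0.34 (interval -1.29 to 0.61). All 4 genes overlapped between the groups, where 28% of tested probes did not. The mean difference of each gene stood between 2 CL arrays that disagreed on its sign. Without the first CL array the differences of Ppia, B2m and Hprt were 0.46, 0.40 and 0.33, and without the second they were -0.53, -0.63 and -0.42. For Tbp they were -0.74 without the first CL array and 0.056 without the second.

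The third comparison, CL-treated white fat against brown fat, changes depot and treatment at once and shares arrays with both others. Hprt averaged 7.10 ± 0.53 in CL-treated white fat and 6.03 ± 0.071 in brown fat (SD, n = 2 each), a log2 difference of 1.07 (95% interval 0.16 to 1.98, limma adjusted p = 0.165), with both treated arrays above both brown fat arrays. Groups did not overlap for 49.6% of tested probes. Ppia, B2m and Tbp overlapped between the groups, at log2 differences of -0.14, 0.11 and 0.26. None of the 4 was called, beside 3.49% of probes, and 0 of their intervals lay inside 1 log2 unit, beside 6.67%. That of Ppia lay inside with median scaling (beside 17.1%), quantile normalization (17.8%) and normexp (31.6%), and that of B2m with normexp. The signs of Ppia, B2m and Tbp each turned when a single array was left out, with ranges of -0.63 to 0.36, -0.40 to 0.63 and -0.14 to 0.66, and Ppia stood at 0.24 and B2m at 0.44 with quantile normalization.

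**Figure D2:**
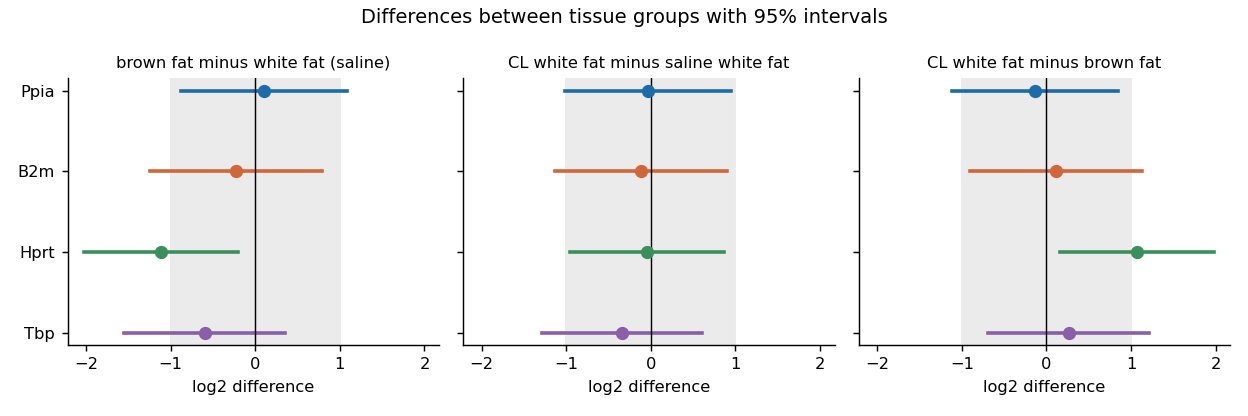
Points are log2 differences between tissue groups and lines their 95% intervals from limma (n = 2 arrays per group); grey marks differences under 1 log2 unit either way. Hprt alone has intervals that leave out 0, in the 2 comparisons with brown fat, and most intervals reach past the grey band.

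In the cultured cells no difference from day 0 reached 2-fold for any of the 4 genes on any of the 3 later days, beside 21.2%, 29.3% and 21.7% of probes at days 3, 5 and 7. There was 1 array per day, so these values have no replicate check. B2m differed from day 0 by log2 -0.58 at day 3, -0.49 at day 5 and -0.29 at day 7. Hprt differed by -0.32, -0.48 and -0.13 on the same days, and Ppia by -0.29, -0.40 and -0.017. On this scale all 3 had their highest culture value at day 0. Tbp differed by -0.37, -0.40 and -0.83 and had its lowest culture value at day 7, at 0.562 of the day 0 signal. The array's 75th percentile moved over the same days, at 8.38, 8.56, 8.71 and 8.46. Without any scaling Ppia read 18.07, 17.96, 18.00 and 18.13 on these days. The day 7 sign of Ppia and Hprt rested on the scaling, at 0.16 and 0.051 with the median of the array in place of the 75th percentile, and Hprt stood at -0.44 with quantile normalization. At day 5 the difference of Tbp was -0.097 with the median, -0.073 without scaling and -0.45 with quantile normalization. That of B2m at day 5 was -0.19 with the median, and -0.16 both without scaling and with quantile normalization.

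Over all 10 arrays Ppia and B2m varied least of the 4, under each of the 5 scalings computed. With the 75th percentile the SD over arrays was 0.30 for Ppia, 0.31 for B2m, 0.49 for Tbp and 0.53 for Hprt, and the highest value exceeded the lowest by 1.99-fold, 2.04-fold, 2.84-fold and 2.81-fold. Ppia ranked first and B2m next under all 5 scalings, and the difference between their SDs was not tested. The order of Hprt and Tbp changed with the scaling. Hprt had the larger SD with the 75th percentile (0.53 against 0.49) and with normexp (0.57 against 0.48). Tbp had the larger SD with the median of the array (0.50 against 0.49), with quantile normalization (0.485 against 0.481) and with no scaling (0.83 against 0.75). Over the culture arrays alone, Hprt varied less than B2m under all 5 scalings. There the SDs were 0.20 for Ppia, 0.21 for Hprt, 0.26 for B2m and 0.34 for Tbp with the 75th percentile. With the median of the array Hprt was the lowest there, at 0.12, beside 0.13 for Ppia. Over the tissue arrays alone Hprt had the largest SD with the 75th percentile, 0.61, beside 0.32 for Ppia and 0.36 for B2m.

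Over all 10 arrays quantile normalization gave Ppia its smallest SD, 0.18, and B2m had 0.25 there and 0.24 with median scaling. Without scaling all 4 spread more, at 0.35 for Ppia and 0.38 for B2m. The arrays are of different conditions and are not replicates, so no test was made of these SDs. Of 29557 probes well above background on all 10 arrays, 7.33% had a smaller SD than Ppia, 9.03% a smaller one than B2m, 39.6% a smaller one than Tbp and 45.7% a smaller one than Hprt. Hprt and Tbp thus varied about as much as the median probe (SD 0.56).

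**Figure D3:**
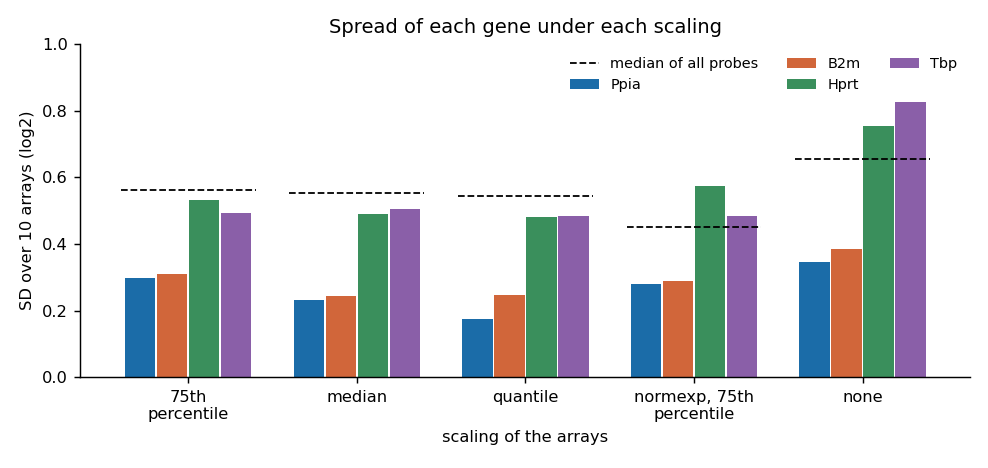
Bars are the SD of the log2 value over 10 arrays for each gene, in groups by the scaling of the arrays; dashed lines are the median SD of 29557 probes under the same scaling. Ppia and B2m are the lowest bars in each group, from 0.18 to 0.38, and Hprt and Tbp lie near the dashed lines.

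Brightness and spread went together only in part. Ppia was between the 42nd and the 233rd brightest of 59709 probes on each array and B2m between the 63rd and the 377th, while Hprt ranked from 1108 to 2101 and Tbp from 7985 to 12273. Probes with a mean log2 signal above 16, to which Ppia and B2m belong, had a median SD of 0.42 (907 probes), against 0.65 for probes between 10 and 12 (3894 probes) and 0.47 for the faintest, below 6 (1777 probes). Within that bright class 5.52% of probes had a smaller SD than Ppia and 8.39% a smaller SD than B2m. With quantile normalization the same shares were 29.4% and 52.1%, and without scaling 28.8% and 37.5%. Among probes within 1 log2 unit of the mean signal of each gene, a closer match, 6.92% had a smaller SD than Ppia and 10.6% a smaller SD than B2m. There the shares were 44.2% and 65.5% with quantile normalization and 43.7% and 51.3% without scaling. Ppia was then near the middle of probes as bright. B2m was near the middle without scaling, but varied more than most of them with quantile normalization. Hprt belongs with 1487 probes between 14 and 16, of which 46.2% had a smaller SD. For Tbp, among 7275 probes between 8 and 10, the share was 33.4%.

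The split of the CL pair also went with brightness. Before scaling, the first CL array exceeded the second by a median of 1.05 log2 units for probes between 10 and 12, but by 0.51 between 14 and 16 and by 0.29 above 16. The 75th percentile differed by 1.31 and was subtracted from all probes alike. Ppia, B2m and Hprt exceeded by 0.33, 0.28 and 0.57 before scaling, close to the medians of their brightness classes, and stood at -0.99, -1.03 and -0.75 after it. Tbp exceeded by 2.11 before scaling, where its class had a median of 0.96, and by 0.79 after it. With quantile normalization the gap between the CL arrays was 0.094 for Ppia, 0.041 for B2m, 0.0024 for Hprt and 0.73 for Tbp. The class medians lay between 0.29 and 1.05 in the CL pair, between -0.45 and -0.074 in brown fat and between -0.43 and -0.16 in saline white fat. What sets the CL arrays apart was not tested.

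**Figure D4:**
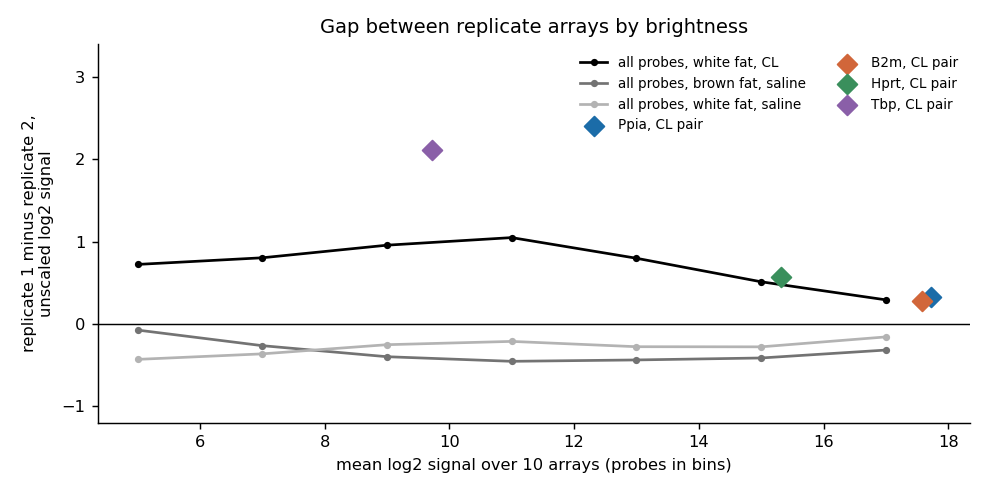
Lines are the median difference between replicate 1 and replicate 2 in unscaled log2 signal, for 29557 probes in 7 classes of mean signal (class middles on the horizontal axis); diamonds are the 4 genes in the CL pair. Ppia, B2m and Hprt lie on the CL line, at 0.33, 0.28 and 0.57, and Tbp lies above it at 2.11.

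Ratios within an array do not depend on the percentile or the median, since both cancel. The ratio of Ppia to B2m had an SD of 0.18 over the 10 arrays, the smallest of the 6 pairs, and a range of 0.54. It was 0.042 and -0.0015 on the 2 CL arrays, so the split of that pair was shared by the 2 genes. The ratio of Ppia to Hprt averaged 2.08 in CL-treated white fat, 3.29 in brown fat, 2.07 in saline white fat and 2.29 in the cells. Its SD was 0.48 over all arrays and 0.051 over the 4 culture days. With quantile normalization, where ratios do not cancel, it was 0.21 over those days. The B2m to Hprt ratio was also highest in brown fat, at 3.02, against 2.13 in saline white fat. Ratios to Tbp were the most variable, with SDs of 0.52 to 0.58, and all 3 were highest on the second CL array. Ppia over Tbp was 9.02 there and lowest on the first CL array (7.24), while Hprt over Tbp was lowest on the second brown fat array (5.15). The mean SD of a gene's 3 ratios, the geNorm measure, was 0.39 for B2m, 0.41 for Ppia, 0.47 for Hprt and 0.55 for Tbp. Without both CL arrays, an alternative chosen after seeing the data, these were 0.34, 0.38, 0.43 and 0.39, and Tbp was no longer the most variable.

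**Figure D5:**
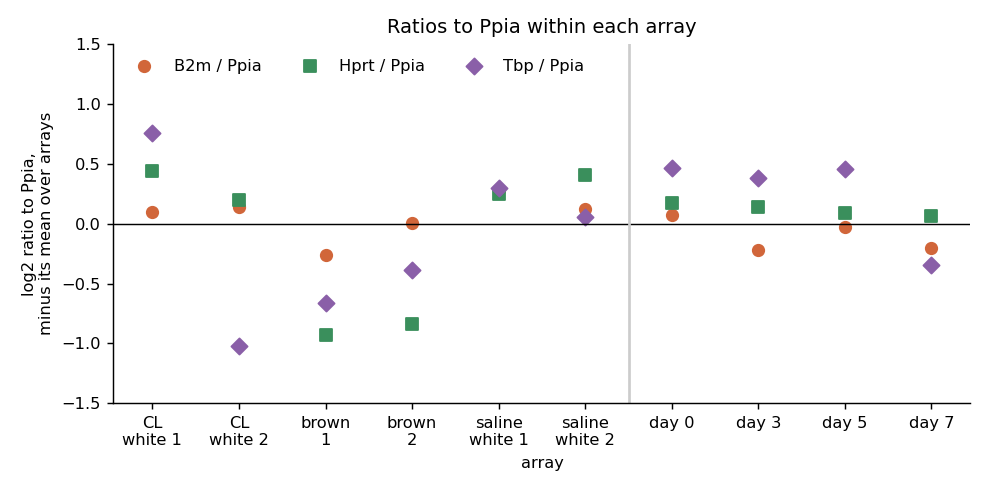
Each symbol is the log2 ratio of B2m, Hprt or Tbp to Ppia on 1 array, less its mean over the 10 arrays. B2m stays within a range of 0.54, Hprt drops on both brown fat arrays, and Tbp is highest on the first and lowest on the second CL array.

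Leaving out both CL arrays also lowered the SDs of Ppia and B2m, while that of Tbp hardly changed and that of Hprt rose slightly. The SD over the other 8 arrays was 0.19 for Ppia, 0.22 for B2m, 0.49 for Tbp and 0.56 for Hprt. Then 1.49% of probes had a smaller SD than Ppia and 3.36% a smaller SD than B2m. For Tbp and Hprt the shares were 41.6% and 51.7%. These shares were not matched for brightness. The arrays left out, chosen after seeing the data, held the lowest value of both Ppia and B2m.

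Within the panel the 4 genes were set beside 8 other genes of a list of 35 commonly used references that were measured by symbol, namely Actb, G6pd2, Gapdh, Gusb, Hsp90ab1, Nono, Rpl13a and Tfrc. Over all 10 arrays 6 of these varied more than each of the 4, and the exceptions were Hsp90ab1, a cytosolic chaperone (SD 0.43), and Gapdh, a glycolytic enzyme (SD 0.51). Rpl13a, a ribosomal protein, had the largest SD, 1.26, and Tfrc, the transferrin receptor, 1.01. The SD of Rpl13a was only 0.33 within the tissue arrays and 0.32 within the culture arrays. Its step between tissue and culture cannot be told apart from the scan. Nono had 0.66 over all arrays, but 0.38 within tissue and 0.37 within culture. Tfrc had 0.50 within tissue and 0.55 within culture. Within the tissue arrays Ppia had 0.32, B2m 0.36, Tbp 0.39 and Hprt 0.61. Of the 8 others, only Gusb (0.72) and G6pd2 (0.78) varied more than Hprt there. Cytoplasmic actin, Actb, had 0.65 over all 10 arrays and 0.43 within tissue. None of the 8 was called in any tissue comparison, where 10.4%, 0% and 3.49% of probes were, and so few genes at such shares show nothing particular to them. Their median log2 difference between brown and white fat was -0.54, beside -0.12 over all tested probes. Ranked by the mean SD of the log ratio to each other panel probe (14 well above background on all arrays), Ppia was first (0.65), B2m next (0.66), and Tbp and Hprt took ranks 3 and 4 (both 0.68). Tuba1b, at rank 5, was level with these at 0.68.

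Among 74 other symbol-bearing probes well above background on all arrays, the closest in course were found by the SD of the log ratio over the 10 arrays. These values share each array's scaling and carry no p. Ppia was closest to Tsnax (SD 0.17, r = 0.90) and Fam177a2 (SD 0.24, r = 0.66). B2m was closest to Dhrsx (SD 0.16, r = 0.87) and Tsnax (SD 0.26, r = 0.75). The nearest to Hprt was Tuba1b, an α-tubulin (SD 0.21, r = 0.93), with Tsnax next (SD 0.39, r = 0.68). Tbp ran closest to Nono, a nuclear RNA-binding protein (SD 0.25, r = 0.95), followed by Zf12 (SD 0.31, r = 0.91).

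What the choice of standard does to another gene is seen with Gk, which rose in brown fat relative to white fat (limma adjusted p = 0.0117). Its brown to white fat ratio was 5.37-fold on the 75th percentile scale. Gk was faint in saline white fat, at log2 6.48 and 6.75 without scaling, where E1A control probes reached 6.75. With normexp it read 0.42 and 0.64 in brown fat and -1.30 and -1.23 in saline white fat, a smaller difference. The size of its ratio thus also rested on the background correction. Without normexp, the Gk ratio read against Ppia was 5.01-fold, against B2m 6.30-fold, against Tbp 8.14-fold and against Hprt 11.6-fold. The median of all tested probes shifted likewise, to a log2 difference of -0.22 against Ppia and 0.99 against Hprt. Set beside brown fat, cells at day 7 were higher by 0.35 for Ppia, 0.28 for B2m, 0.53 for Tbp and 1.30 for Hprt, values from separate scans with no test.

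B2m is carried by immune cells as well as by fat cells. Of 12 genes listed for immune cells 2 were measured by symbol, the near-identical chemokine copies Ccl21b and Ccl21c. As chemokine genes they are not a measure of the immune cells that carry B2m. Ccl21b read 6.16 and 7.10 in CL-treated white fat, 4.26 and 5.58 in brown fat and 7.72 and 7.49 in saline white fat, and between -0.85 and -0.50 in the cells. Ccl21c had the same order of groups, at 6.16 and 7.29 in CL-treated white fat, 4.62 and 5.84 in brown fat and 7.82 and 7.48 in saline white fat. Their part in the B2m values was not tested. In bulk tissue, fewer cells of a type and less RNA per cell cannot be told apart.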

How the data were processed

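Total RNA from 6 fat samples and 4 cell samples was labelled with Cy3 and hybridised to 1 array each, per the labels. Spot intensity values in the deposited scanner output comprise a background-subtracted and detrended processed signal and the median spot and background brightness, with flags of 0 or 1, from Agilent Feature Extraction 11.0.1.1 per the file headers. The submitters' processing notes name version 9.1. A deposited table of log2 values, whose normalization is not given in the sources used here, lists 0 of the 4 probes and was not used further.

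Computation used R 4.3.3 and limma 3.58.1. Control spots, the spots of 20 negative control probes and outlier spots were left out and log2 processed signals were averaged per probe (59709 probes). Each array's 75th percentile was subtracted. Accessions were matched to symbols through RefSeq. Tests covered probes that both arrays of any tissue group measured well above background. A single limma model over the 6 tissue arrays (group means, 3 residual degrees of freedom, prior 4.46) gave differences, 95% intervals and Benjamini-Hochberg adjusted p-values, two-sided. The number of arrays limits the precision. Cell arrays, SDs and ratios were described without a test, apart from a trend on the day among the alternatives. The fit was tested on simulated data. Adenovirus E1A control probes had log2 signals of at most 6.75 and gave no usable scale.

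Alternatives were median scaling, quantile normalization, no scaling, normexp (offset 50, from median spot and background signals), other filters, a replicate block, the compared groups alone, each tissue array left out, and a trend on the day. Named genes were the 4, the listed reference genes measured by symbol, and the 2 probes nearest each gene. Members and lists were chosen with earlier results of these data known. Gk, Ccl21b and the panel's Tuba1b are named because a result turns on them.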

Additional observations from a re-analysis of the deposited data

How the results depend on the processing

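Of 156 alternative values for the 12 tissue differences, 137 kept their direction and their side of the threshold, 5 passed it, all for Hprt between brown and white fat, and 14 turned sign, all with an adjusted p of 0.355 or more. Of these 5, the saline groups alone and the settings without either CL array are 1 and the same fit for this difference. Hprt gave -1.28 with quantile normalization, -1.24 with normexp and -1.11 in the saline groups alone, and lay between -1.17 and -1.06 with single arrays left out. With median scaling the CL difference in white fat turned to 0.040 for Ppia and 0.031 for Hprt. Ppia turned to -0.33 (quantile) and -0.035 (normexp) between brown and white fat, and to 0.24 (quantile) between CL-treated white fat and brown fat. With single arrays left out the CL difference in white fat ran from -0.53 to 0.46 for Ppia, -0.63 to 0.40 for B2m, -0.42 to 0.33 for Hprt and -0.74 to 0.056 for Tbp. Against brown fat it ran from -0.63 to 0.36 for Ppia, -0.40 to 0.63 for B2m and -0.14 to 0.66 for Tbp. The cause was not tested, and leaving out an array gives a fit of fewer samples, in which the lone array is assumed to vary like the others.

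Called probes numbered 4526 (brown against white fat), 0 (CL against saline) and 1521 (CL-treated white fat against brown fat). They numbered 1385, 0 and 544 with no filter, 14226, 0 and 995 in the compared groups alone, and 321 to 14226, 0 to 110 and 203 to 11522 with single arrays left out. For CL against saline there were 32 with normexp and 2 among probes well above background on all 6 arrays. The titles give each tissue group replicates 1 and 2. Replicate deviations correlated at -0.02, -0.08 and 0.50 between the 3 pairs of groups, so the numbers were not taken as pairing. With the replicate block the calls were 6212, 1 and 2189, and none of the 4 genes was called.

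The SD over arrays of Ppia was 0.18 with quantile normalization, 0.20 without the first CL array and 0.19 without both, against 0.30. That of Tbp was 0.83 without scaling, against 0.49. Of 52 alternative values for the culture days, 51 moved by less than the pooled SD between tissue replicates, to which the CL pair gives most. The exception was Hprt at day 5, -0.15 without scaling against -0.48. The other genes moved alike there, from -0.40 to -0.065 for Ppia, -0.49 to -0.16 for B2m and -0.40 to -0.073 for Tbp. Hprt stood out because its pooled SD was smaller, 0.31, beside 0.36 for Tbp, 0.40 for Ppia and 0.44 for B2m. These SDs come from tissue and do not measure the spread in culture. A linear trend on the day called 0 of 48630 probes with limma (4325 at an unadjusted p under 0.05), with adjusted p of 0.733 to 0.985 for the 4 genes. With 1 array per day, departures from a straight line stand in for replicate error. The trend therefore does not show that a gene was steady in culture. The value table and a scan block were not run, because the table lists none of the 4 probes and the tissue arrays share 1 scan.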
